A study of Mus musculus with 20 samples.

Results

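The 4 promoters described here, those of Sfi1, 3110070M22Rik, Gm5105 and Prr22, were chosen from 22480 promoters by their measured level. They had the highest average of the 4 group means among the 21484 promoters without Mir in their symbol, so their high level is how they were found and is given as a description, with no test. MBD-sequencing was done on sperm DNA of 20 F1 males aged 8 weeks, 5 per group in 4 groups. Mothers were C57BL/6J or FVB/N mice given 300 mg/kg/day of DEHP, di-(2-ethylhexyl)phthalate, a plasticizer, in corn oil by gavage from gestation day 9 to 19 (C57BL/6J DEHP and FVB/N DEHP), or corn oil alone (C57BL/6J control and FVB/N control). The DNA of DEHP males and of control males went to sequencing as separate submissions, both strains in each, and treatment cannot be told apart from submission in any comparison of DEHP with controls. Only group means and SDs over 5 libraries, in normalized reads, were analysed, the depth of each library is unknown, and no test between animals was run, because the members were chosen on these same means and an exact test needs values of single libraries. By the study's methods the average depth and the read length also differed between DEHP and control libraries. Nothing in the sources used here says whether the males of a group came from separate litters.

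In MBD-sequencing a methyl binding domain captures DNA fragments that carry methylated CpG, so the reads over a region depend on how many of its CpG are methylated and on how many CpG it holds. Promoters rich in CpG are mostly unmethylated in sperm, and copies of repeated DNA are mostly methylated. Reads from a region with several copies can fall on a single place of the reference where that reference holds fewer copies than the animal. Sfi1 codes for a centrosome protein that binds centrins, the small calcium-binding proteins of the centriole. Prr22 codes for a proline-rich protein, while 3110070M22Rik and Gm5105 are names given to gene models whose function is not described here.

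Each promoter probe runs from 2000 bases upstream of a gene start to 200 bases downstream. On mm10 the Sfi1 probe lies at chr11:3193264-3195463 on the minus strand and holds 53 CG sites. The 3110070M22Rik probe lies at chr13:119488185-119490384 on the minus strand with 126 CG sites, the Gm5105 probe at chr3:138067189-138069388 on the minus strand with 66, and the Prr22 probe at chr17:56768276-56770475 on the plus strand with 58. Over all probes the median was 45 CG sites, so Sfi1, Gm5105 and Prr22 were of ordinary CG number, whereas 3.30% of promoters had as many as 3110070M22Rik. The reference GRCm38.p6, of the same build, gave the same number for 4 of 4 members and for 93.2% of all promoters. For 3110070M22Rik, Gm5105 and Prr22, the 200 bases with the most CG sites outside untranslated exons of GENCODE or RefSeq are printed here 5' to 3' on the strand of the gene, from the RefSeq copy of that assembly, with CG sites in capitals. They show the probes away from untranslated exons, with 9 to 13 CG sites in 200 bases. They lie at chr13:119489581-119489780 for 3110070M22Rik (9 CG sites), chr3:138067728-138067927 for Gm5105 (11 CG sites) and chr17:56768479-56768678 for Prr22 (13 CG sites).
3110070M22Rik: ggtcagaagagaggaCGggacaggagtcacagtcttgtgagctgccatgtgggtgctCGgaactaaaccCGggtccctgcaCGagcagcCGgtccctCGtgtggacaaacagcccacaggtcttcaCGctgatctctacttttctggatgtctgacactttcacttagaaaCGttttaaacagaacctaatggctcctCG
Gm5105: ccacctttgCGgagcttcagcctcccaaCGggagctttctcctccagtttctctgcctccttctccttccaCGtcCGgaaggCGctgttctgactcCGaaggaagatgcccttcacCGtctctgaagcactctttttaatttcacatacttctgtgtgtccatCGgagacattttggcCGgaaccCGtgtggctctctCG
Prr22: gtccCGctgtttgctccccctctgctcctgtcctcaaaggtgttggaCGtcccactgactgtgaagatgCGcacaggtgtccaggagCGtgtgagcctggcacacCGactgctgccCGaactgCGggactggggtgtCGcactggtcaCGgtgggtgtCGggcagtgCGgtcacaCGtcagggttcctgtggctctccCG

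The CG sites were placed differently along the 4 probes. Sfi1 had 24 of its 53 CG sites in the 500 bases before the gene start and 16 after it, with 2 between -1500 and -1000 bases. 3110070M22Rik had 59 of 126 in the 500 bases before the start and 24 after it. Both therefore had most CG sites around the start, as a CpG-rich promoter has. At Gm5105 the sites were spread, with 16, 11, 15 and 20 in the successive 500-base stretches from -2000 bases to the start. Prr22 had the opposite placing, with 21 sites between -2000 and -1500 bases, 5 in the last 500 bases before the start and 3 after it.

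Sfi1 had the highest level of all 22480 promoters in each of the 4 groups. In C57BL/6J the authors' mean was 1972 normalized reads in controls (authors' SD 702.5, n = 5) and 171.9 in DEHP (authors' SD 43.5, n = 5). It was 1344 in FVB/N controls (authors' SD 210.7, n = 5) and 97.4 in FVB/N DEHP (authors' SD 17.8, n = 5). In both strains DEHP males were lower than control males. With 5 values none can lie further than 1.79 SD from the mean, which places the Sfi1 libraries of C57BL/6J controls between 715.1 and 3229 normalized reads and those of C57BL/6J DEHP between 93.95 and 249.9. In FVB/N the same limits were 966.5 to 1721 in controls and 65.42 to 129.4 in DEHP. DEHP and control libraries overlapped in neither strain.

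3110070M22Rik was the promoter with the second highest level in controls of both strains, and it was the only member with more reads in FVB/N than in C57BL/6J in both treatments on the deposited scale. The authors' mean in C57BL/6J was 234.6 normalized reads in controls (authors' SD 80.8, n = 5) and 23.9 in DEHP (authors' SD 10.5, n = 5). It was 617.5 in FVB/N controls (authors' SD 97.7, n = 5) and 46.2 in FVB/N DEHP (authors' SD 7.6, n = 5). The limits on the libraries were 89.92 to 379.3 and 4.978 to 42.82 in C57BL/6J, and 442.6 to 792.4 and 32.47 to 59.93 in FVB/N, without overlap of DEHP and controls in either strain. In C57BL/6J DEHP the promoter ranked 295 of all, and in FVB/N DEHP it ranked 5, so its place near the top did not extend to DEHP males of C57BL/6J.

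Gm5105 and Prr22 were well below Sfi1 in every group. The authors' mean of Gm5105 was 170 (authors' SD 52.5, n = 5) and 40.7 (authors' SD 17.9, n = 5) normalized reads in C57BL/6J controls and DEHP, and 129.1 (authors' SD 11, n = 5) and 38.8 (authors' SD 9, n = 5) in those of FVB/N. That of Prr22 was 138.5 (authors' SD 49, n = 5) and 28.8 (authors' SD 13.3, n = 5) in C57BL/6J, and 99.9 (authors' SD 22.2, n = 5) and 30.6 (authors' SD 4.3, n = 5) in FVB/N. Both were lower in DEHP than in controls. The DEHP and control libraries of Gm5105 lay apart in C57BL/6J (8.54 to 72.86 against 75.95 to 264.1) and in FVB/N (22.56 to 55.04 against 109.3 to 148.9). The separation in C57BL/6J was lost with the group sums set equal, and with the SD taken as divided by the number of libraries. For Prr22 they lay apart in FVB/N (22.77 to 38.43 against 60.05 to 139.8), whereas in C57BL/6J the limits overlapped, with DEHP up to 52.73 and controls from 50.71.

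**Figure D1:**
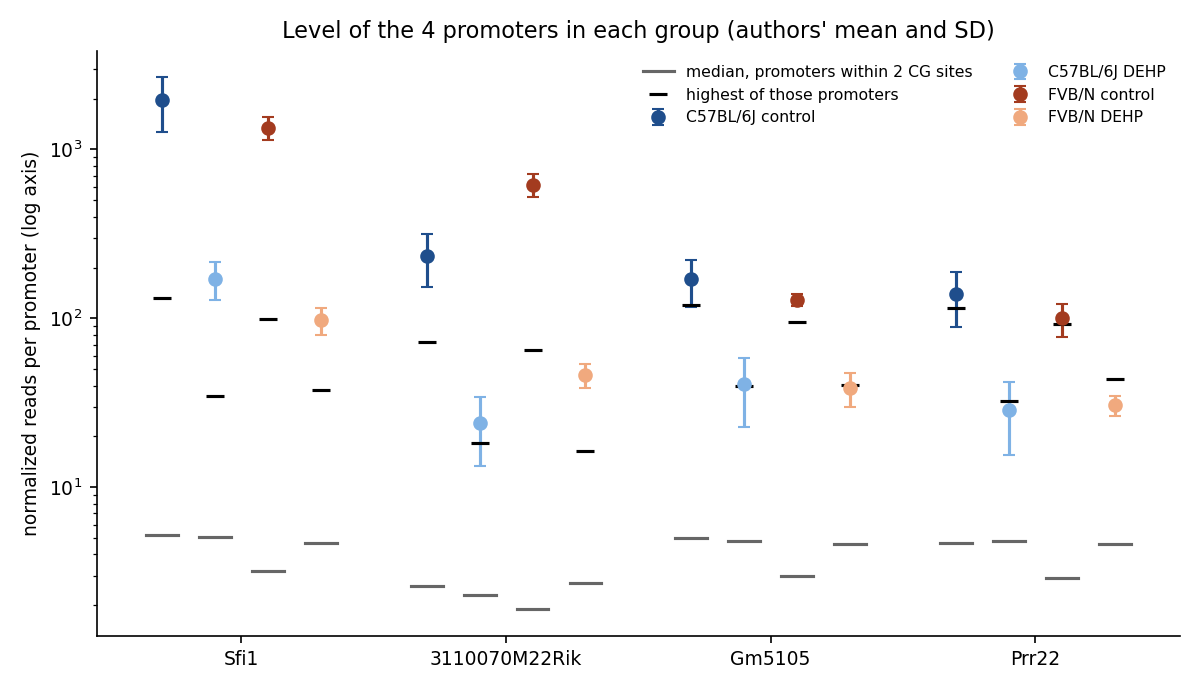
Authors' mean of normalized reads (points, log axis) with the authors' SD (bars, n = 5 libraries) of the 4 promoters in each group, with the median (grey lines) and the highest (black dashes) of the promoters within 2 CG sites of each. Sfi1 sits above every matched promoter in the 4 groups, from 1972 normalized reads in C57BL/6J controls to 97.4 in FVB/N DEHP, while Gm5105 and Prr22 sit near the highest matched promoter.

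The threshold separated Prr22 from its neighbours in rank by little. Prr22 had an average of the 4 group means of 74.45 normalized reads, and the next promoters without Mir in their symbol were those of Snord37, a small nucleolar RNA, with 73.975, and Misp, a mitotic spindle protein, with 71.325. The microRNA promoters Mir434, Mir466d, Mir7226 and Mir3087 had 86.275, 83.225, 81.3 and 74.625, above Prr22 and below Gm5105 with 94.65. Sfi1 with 896.2 and 3110070M22Rik with 230.55 were thus set off from the rest, whereas Gm5105 and Prr22 lay at the end of a continuous range. Among the 12 promoters with the highest level, Mir432 with 72.1 and Mir7005 with 69 completed the list. The order changed with the groups used. By the 2 DEHP groups alone 3110070M22Rik ranked 10, Gm5105 5 and Prr22 32 among promoters without Mir in their symbol, and by the 2 control groups alone Prr22 ranked 5, while Sfi1 ranked 1 either way.

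A level was set against promoters with as many CG sites, within 2 of the member's number. For Sfi1 there were 1122 such promoters, with medians of 5.2 and 5.1 normalized reads in C57BL/6J controls and DEHP and 3.2 and 4.7 in those of FVB/N. Sfi1 was 379-fold and 33.7-fold above these medians in C57BL/6J and 420-fold and 20.7-fold in FVB/N. It exceeded the highest of the 1122, Mir3087 with 132 normalized reads in C57BL/6J controls, by 14.9-fold, and in FVB/N DEHP the highest, 6430411K18Rik with 37.9, by 2.57-fold. Sfi1 was the top promoter among its matched ones in every group, by a smaller margin in DEHP.

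The 125 promoters matched to 3110070M22Rik had medians between 1.9 and 2.7 normalized reads, lower than those matched to the other members. The highest of them was Pced1b in each group, with 72 and 18.2 in C57BL/6J controls and DEHP and 65 and 16.5 in those of FVB/N. 3110070M22Rik exceeded Pced1b by 3.26-fold and 1.31-fold in C57BL/6J and by 9.5-fold and 2.8-fold in FVB/N. Gm5105 and Prr22 had matched promoters of nearly their own level. Of the 1056 promoters matched to Gm5105, Mir7658 had 120.5 normalized reads in C57BL/6J controls, and Mir432 with 40.4 exceeded Gm5105 in FVB/N DEHP. Of the 1147 matched to Prr22, Mir7037 had 114.5 in C57BL/6J controls, and 2 promoters in C57BL/6J DEHP and 4 in FVB/N DEHP were at or above Prr22.

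Divided by the number of CG sites, the authors' mean of Sfi1 was 37.21 normalized reads per site in C57BL/6J controls and 25.35 in FVB/N controls, the highest of all promoters in each, where the medians over all promoters were 0.138 and 0.0844. Under DEHP it was 3.243 for C57BL/6J and 1.838 for FVB/N, ranks 3 and 8. For the other members this per-site level stood out in controls and not in DEHP. 3110070M22Rik ranked 105 and 3 in C57BL/6J and FVB/N controls and 9226 and 5834 in DEHP, in the same order. Gm5105 ranked 6 and 9 in controls and 2580 and 2919 in DEHP, and Prr22 ranked 12 and 12, and 4386 and 3688.

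**Figure D2:**
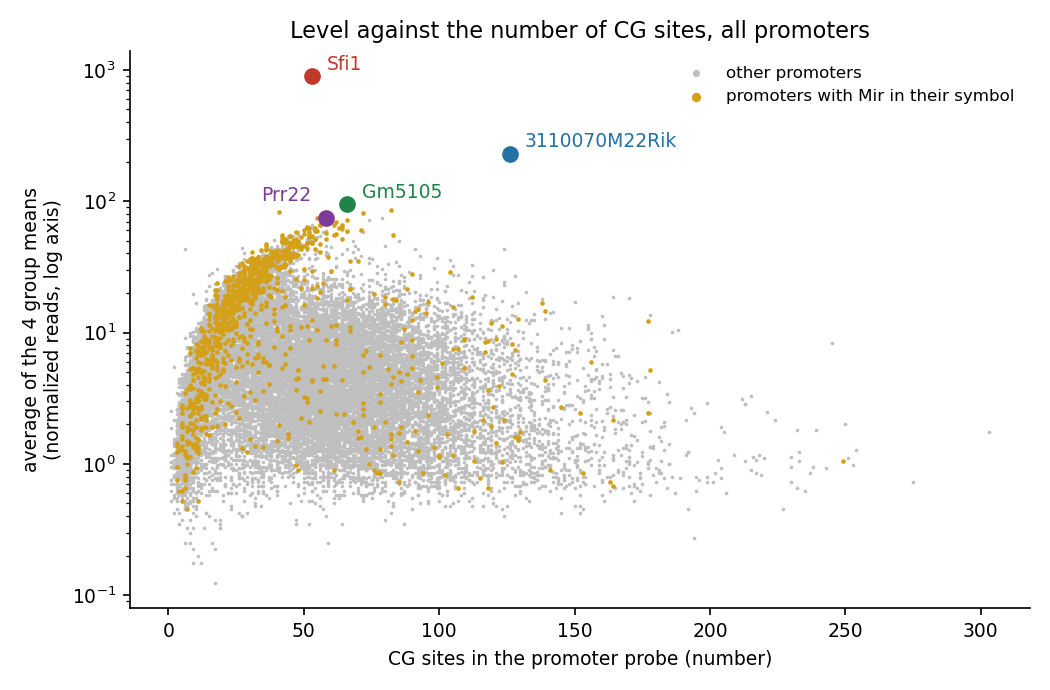
Average of the 4 group means (normalized reads, log axis) against the number of CG sites in the probe for the 22480 promoters, with promoters that have Mir in their symbol in yellow and the 4 members labelled. Sfi1 with 53 CG sites and 3110070M22Rik with 126 lie above the band of promoters, and Gm5105 with 66 and Prr22 with 58 lie at its upper edge.

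The 4 promoters together held 1.11% of the summed means of all promoters in C57BL/6J controls and 1.55% in FVB/N controls, and 0.173% and 0.142% in C57BL/6J and FVB/N DEHP. Sfi1 alone made up 0.871% and 0.952% in controls, so a single promoter of 22480 took nearly 1% of the reads counted. The sums of the means were 226268 and 153283 normalized reads in C57BL/6J controls and DEHP and 141092 and 150346 in those of FVB/N, which shows that the deposited means were not on one total. The spread among the libraries of a group, as the SD divided by the mean, was set against promoters with at least 10 normalized reads. In FVB/N controls it was low, at 0.157 for Sfi1, 0.158 for 3110070M22Rik, 0.0852 for Gm5105 and 0.222 for Prr22, where the median was 0.410. In C57BL/6J DEHP it was 0.439, 0.440 and 0.462 for 3110070M22Rik, Gm5105 and Prr22, above the median of 0.350, and 0.253 for Sfi1, below it. In C57BL/6J controls the members lay between 0.309 and 0.356, near the median of 0.322, and in FVB/N DEHP between 0.141 and 0.232, below the median of 0.248.

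The group means of the 4 promoters were lower in DEHP than in controls in both strains, in captured reads, and the levels from which they were chosen enter this comparison. Sfi1 had 11.5-fold fewer normalized reads in DEHP in C57BL/6J and 13.8-fold fewer in FVB/N, with a log2 ratio of DEHP over control (pseudocount of 1) of -3.51 (SD 0.63 from the authors' SDs) and -3.77 (SD 0.35). These were the lowest ratios of all 22480 promoters in each strain. For 3110070M22Rik the log2 ratio was -3.24 (SD 0.81) and -3.71 (SD 0.33), or 9.82-fold and 13.4-fold fewer reads, rank 3 and 2 from the lowest. Gm5105 had -2.04 (SD 0.78) and -1.71 (SD 0.36), or 4.18-fold and 3.33-fold fewer, and Prr22 had -2.23 (SD 0.84) and -1.67 (SD 0.38), or 4.81-fold and 3.26-fold fewer. The median log2 ratio of all promoters was -0.10 for C57BL/6J and 0.35 for FVB/N, so relative to this median the ratio of Sfi1 was -3.41 and -4.12. With group medians set equal, the FVB/N log2 ratios were lower, at -4.48 for Sfi1, -4.42 for 3110070M22Rik, -2.41 for Gm5105 and -2.37 for Prr22. With group sums set equal, the falls in C57BL/6J were smaller. The log2 ratios were then -2.95 for Sfi1, -2.69 for 3110070M22Rik, -1.48 for Gm5105 and -1.67 for Prr22.

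In C57BL/6J, DEHP libraries lay wholly below control libraries for 3 of the 4 members, where 1.42% of all promoters did so, and in FVB/N for 4 of 4, where 0.859% did. The members were chosen on the same means, and nothing is read from these counts. The number of promoters behind these shares depended on the scale, and went from 319 to 29 in C57BL/6J with equal sums and from 193 to 739 in FVB/N with equal medians. Below in both strains were 39 promoters, 0.173% of all, of which 3 were Sfi1, 3110070M22Rik and Gm5105. Once medians were set equal, the ranges of Prr22 in C57BL/6J came apart. The size of the fall in both strains was compared next. On the deposited scale, subtracting the FVB/N log2 ratio from that of C57BL/6J gave 0.26 for Sfi1 (SD 0.72), 0.47 for 3110070M22Rik (SD 0.87), -0.33 for Gm5105 (SD 0.85) and -0.55 for Prr22 (SD 0.92), each smaller than its SD. This rested on the scale. Once group sums were set equal, the difference was 0.91 for Sfi1 and 1.12 for 3110070M22Rik, and with equal medians it was 0.88 and 1.10, a larger fall in FVB/N that exceeded the SD under both. For Gm5105 it became 0.32 and 0.29 and for Prr22 0.096 and 0.070, of opposite sign to the deposited scale and smaller than the SD.

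Promoters with many reads in controls of the other strain had lower ratios of DEHP over control than those with few. That level does not enter the ratio. It is not independent of the ratio either, since controls of both strains were in the same submission. Promoters were not classed by their level in DEHP. Among 14633 promoters with under 5 normalized reads in FVB/N controls, the median log2 ratio in C57BL/6J was 0.18. It was -0.39, -0.77, -1.14 and -1.48 in the classes of 5 to 10, 10 to 20, 20 to 40 and 40 to 60 normalized reads. In the 73 promoters with at least 60 it was -1.75, and the lowest, the members left out, was -2.50. Gm5105 with -2.04 and Prr22 with -2.23 lay within the range of this class, and Sfi1 with -3.51 and 3110070M22Rik with -3.24 lay below it. In FVB/N, classed by C57BL/6J controls, the median was 0.47 under 5 normalized reads and 0.54, 0.27, -0.11 and -0.52 in the following classes, so it was lower only from 10 normalized reads on. In the 250 promoters with at least 60 it was -0.97, with a lowest of -2.25. Gm5105 with -1.71 and Prr22 with -1.67 were again within the range, and Sfi1 with -3.77 and 3110070M22Rik with -3.71 below it. Outside the members no group mean exceeded 198.8 normalized reads, that of Mir466d in FVB/N controls, so no promoter of like level could be set beside the controls of Sfi1 or of 3110070M22Rik.

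**Figure D3:**
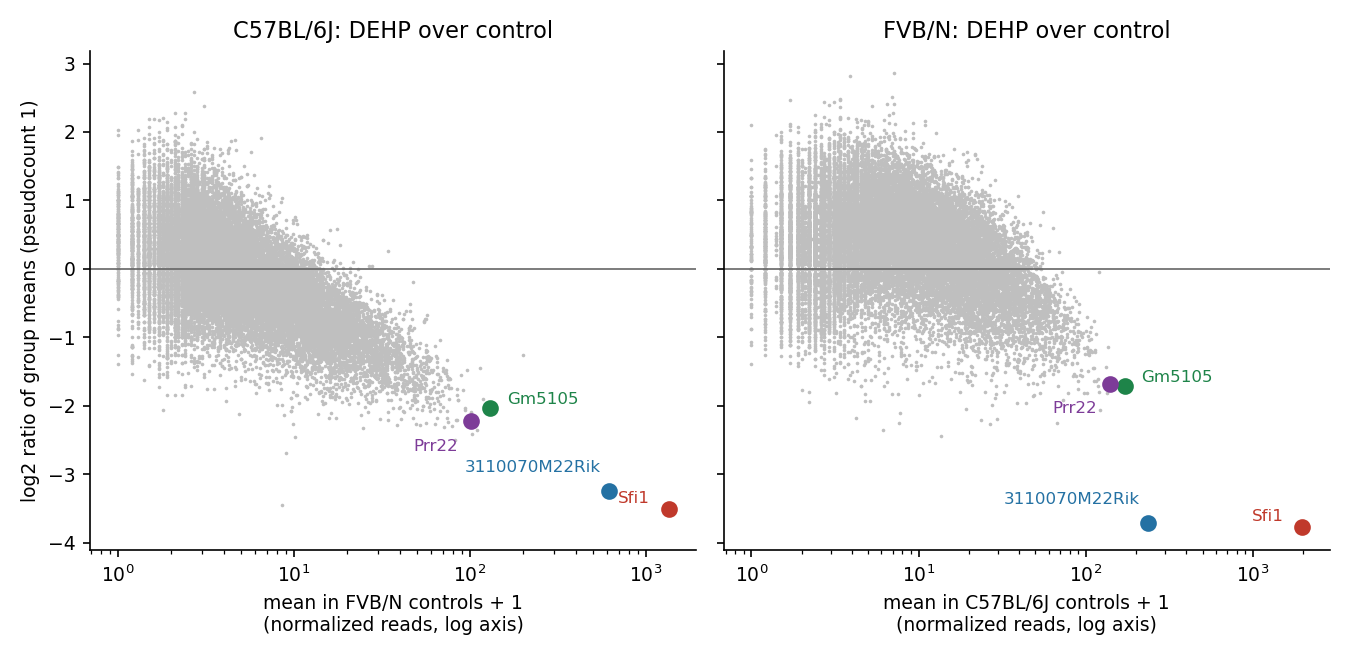
Log2 ratio of group means, DEHP over control with a pseudocount of 1, against the mean in controls of the other strain plus 1 (normalized reads, log axis), for the 22480 promoters (grey) and the 4 members in C57BL/6J (left) and FVB/N (right). Promoters of high level in controls of the other strain have lower ratios than those of low level. Gm5105 and Prr22 lie at the end of this band, and Sfi1 (-3.51 and -3.77) and 3110070M22Rik (-3.24 and -3.71) lie below and to the right of it.

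Between strains, 3110070M22Rik differed from the other members. In controls it had 2.63-fold more normalized reads in FVB/N than in C57BL/6J, a log2 ratio of C57BL/6J over FVB/N of -1.39 (SD 0.55), while the median over all promoters was 0.54. Every FVB/N control library lay above every C57BL/6J control library, which was so for 6 promoters, 0.0267% of all. With equal sums and equal medians the log2 ratio of 3110070M22Rik was -2.07 and -2.13, and the promoters so separated numbered 25 and 29. On the deposited scale the other 5 were Rps4l, 2810429I04Rik, Olfr741, 6820431F20Rik and Dlx6, of which 6820431F20Rik had the highest level with 54.9 normalized reads in FVB/N controls and 20 in C57BL/6J controls. In DEHP, 3110070M22Rik had 1.93-fold more reads in FVB/N, with limits on the libraries that overlapped. Sfi1, Gm5105 and Prr22 had log2 ratios of 0.55, 0.39 and 0.47 in controls, near the median of all, and these turned to -0.13, -0.28 and -0.21 once group sums were set equal. Their order between the strains in controls thus depended on the scaling. In DEHP the ratios were 0.81 (SD 0.45), 0.07 and -0.08, where the median of all was 0.04.

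Promoters next to the members did not share their level. Eif4enif1, whose product carries the translation factor eIF4E into the nucleus, has its probe 4890 bases from that of Sfi1 and had 3.1, 2.8, 2.5 and 2.4 normalized reads in controls and DEHP of C57BL/6J and then controls and DEHP of FVB/N. Further away, Pisd-ps1, a pseudogene, had at most 1.9 and Drg1, a GTP-binding protein gene, at most 0.9. The 6 promoters within 200 kb of Sfi1 had averages between 0.775 and 31.2 normalized reads, the highest at Gm11944, followed by Pik3ip1 with 9.6 and Patz1 with 3.625. None of the 6 came near the level of Sfi1.

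The probe of Gm7120 overlaps that of 3110070M22Rik by 54 bases and had 9.3, 5.4, 3.2 and 4 normalized reads in the same order of groups. The other promoters within 200 kb, including 4833420G17Rik, Paip1, Nnt and 1700074H08Rik, reached an average of 13.875 at Ccl28, a chemokine gene. A pair over the shared 54 bases counts for both probes, so most pairs of 3110070M22Rik lay outside them. Around Gm5105 the 6 promoters had averages between 1.95 and 22.95, with Trmt10a 4.275, Dapp1 4.225, 4930579F01Rik 6.35, Adh7 20.35 and 0610031O16Rik 22.95. Of 14 promoters around Prr22, Nrtn, which codes for a neurotrophic factor and whose probe is 8746 bases away, had an average of 12.7. The highest were 1700061G19Rik with 28.6, Acsbg2 with 25.25 and Fut4-ps1 with 25.075, while Vmac had 4.575.

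**Figure D4:**
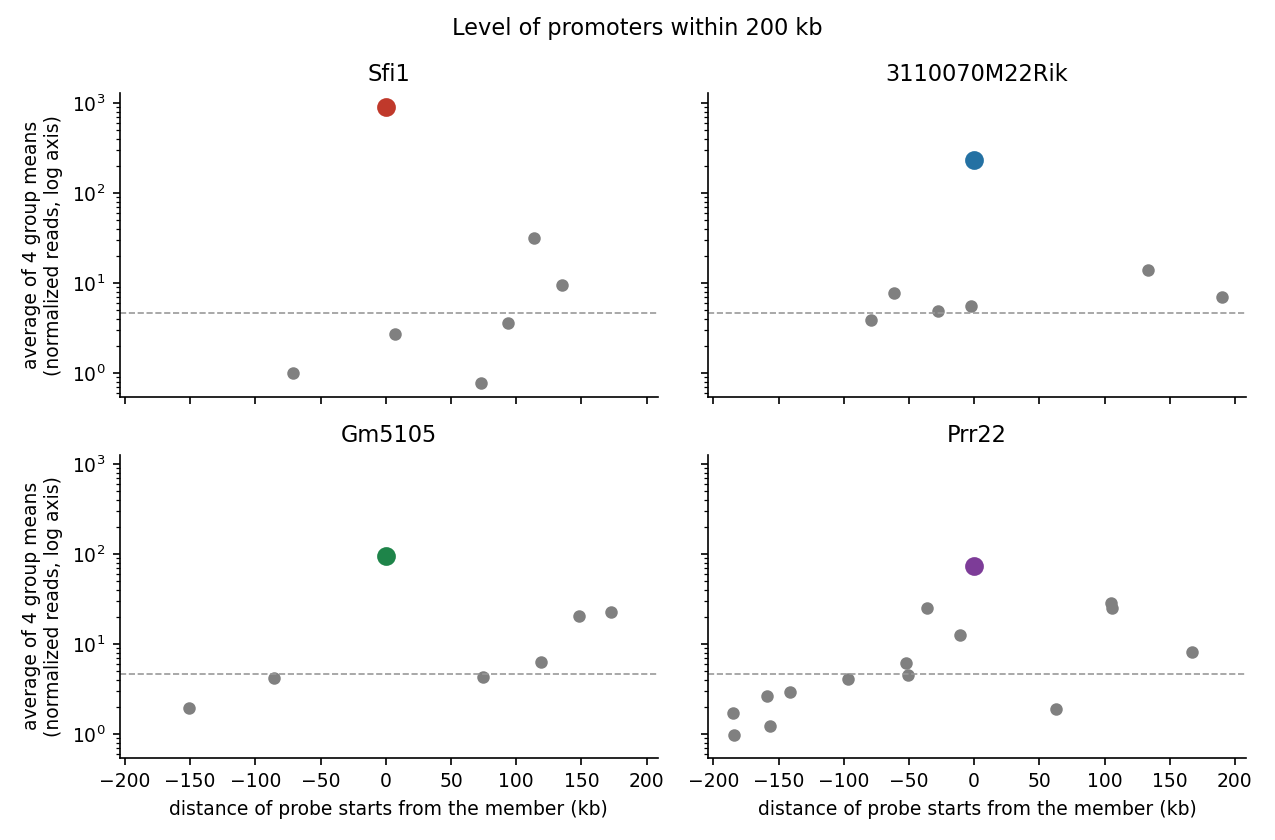
Average of the 4 group means (normalized reads, log axis) of promoters within 200 kb of each member, against the distance of the probe starts (kb, along the plus strand), with the member coloured at 0 and the median of all promoters, 4.65, as a dashed line. The neighbours of Sfi1 stay at or below 31.2 and those of 3110070M22Rik at or below 13.875, far under the members.

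The sequence of the probes was examined for repeats and further copies in GRCm38.p6. Of the Sfi1 probe, 44.2% of the bases are repeat-masked and 5.92% of all promoters have as much. For 3110070M22Rik the share was 33.5%, and 16.8% of promoters have as much, while Prr22 with 17.5% and Gm5105 with 4.36% were below the median of 19.2%. The CG sites of Sfi1 were mostly outside the masked bases, since 8 of 53 lay in them. The 51-base windows, the length of the longer reads, were counted on both strands of the assembly. At Sfi1, 148 of 2150 windows (6.88%) occur more than once, in stretches between -1874 and -1648 bases and between -1058 and -885 bases from the gene start, and the most frequent window occurs 82349 times. At Gm5105 and Prr22, 0 of 2150 windows occur more than once. Sfi1, Gm5105 and Prr22 were thus largely unique in the assembly at the length of a read, and none of the 4 had a window that matched the mitochondrial genome.

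3110070M22Rik is the member with a second copy. Of its windows, 843 of 2150 (39.2%) occur more than once, and 1.96% of promoters reach its share in windows sampled every 20 bases. Of the 843 windows, 633 occur in 2 places and the rest in more, the most frequent in 8446. The far 927 bases of the probe, chr13:119489458-119490384, align to chr13:119603529-119604455 with 99.1% identity, 8 mismatches and no gap. The second place is 114.1 kb away, on the same strand, inside the gene span of Tmem267, a transmembrane protein gene, and outside its exons. The block covers 42.1% of the probe and holds 21 of its 126 CG sites. Beyond the probe the likeness goes on, up to chr13:119495505. With 10 kb added on each side, the block that holds these 927 bases was 2766 bases long at 98.8% identity, and the next block, wholly outside the probe, was 2606 bases at 99.6%. A stretch of 60 bases of both places is shown on the plus strand, with the bases that differ in capitals, since these are what lets a read be placed on one copy. It was picked as the stretch with the most differences, 3 of the 8 mismatches, and the rest of the block differs less.
3110070M22Rik probe, chr13:119489975-119490034: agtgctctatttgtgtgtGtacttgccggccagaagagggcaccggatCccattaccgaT
Second place, chr13:119604046-119604105: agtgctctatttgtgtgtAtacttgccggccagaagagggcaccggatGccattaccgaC

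The 200 bases of 3110070M22Rik shown above lie inside this block. Windows of 100 bases that occur more than once made up 22.4% of the 3110070M22Rik windows, all of them in 2 places, and 0.143% of those of Sfi1. With 36 bases the shares were 42.9% and 14.2%. For Sfi1, Gm5105 and Prr22 no alignment of at least 200 bases at 90% identity was found elsewhere. With 10 kb added on each side there was none of at least 500 bases on the chromosomes. Scaffolds and patches of the assembly were left out of that second search. The search sees copies in the assembly only. Because the authors discarded pairs with several positions, pairs from sequence identical in several places of mm10 were not counted. The number of copies of these promoters in the DNA of the males was not tested, and no library of uncaptured DNA was used here.

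**Figure D5:**
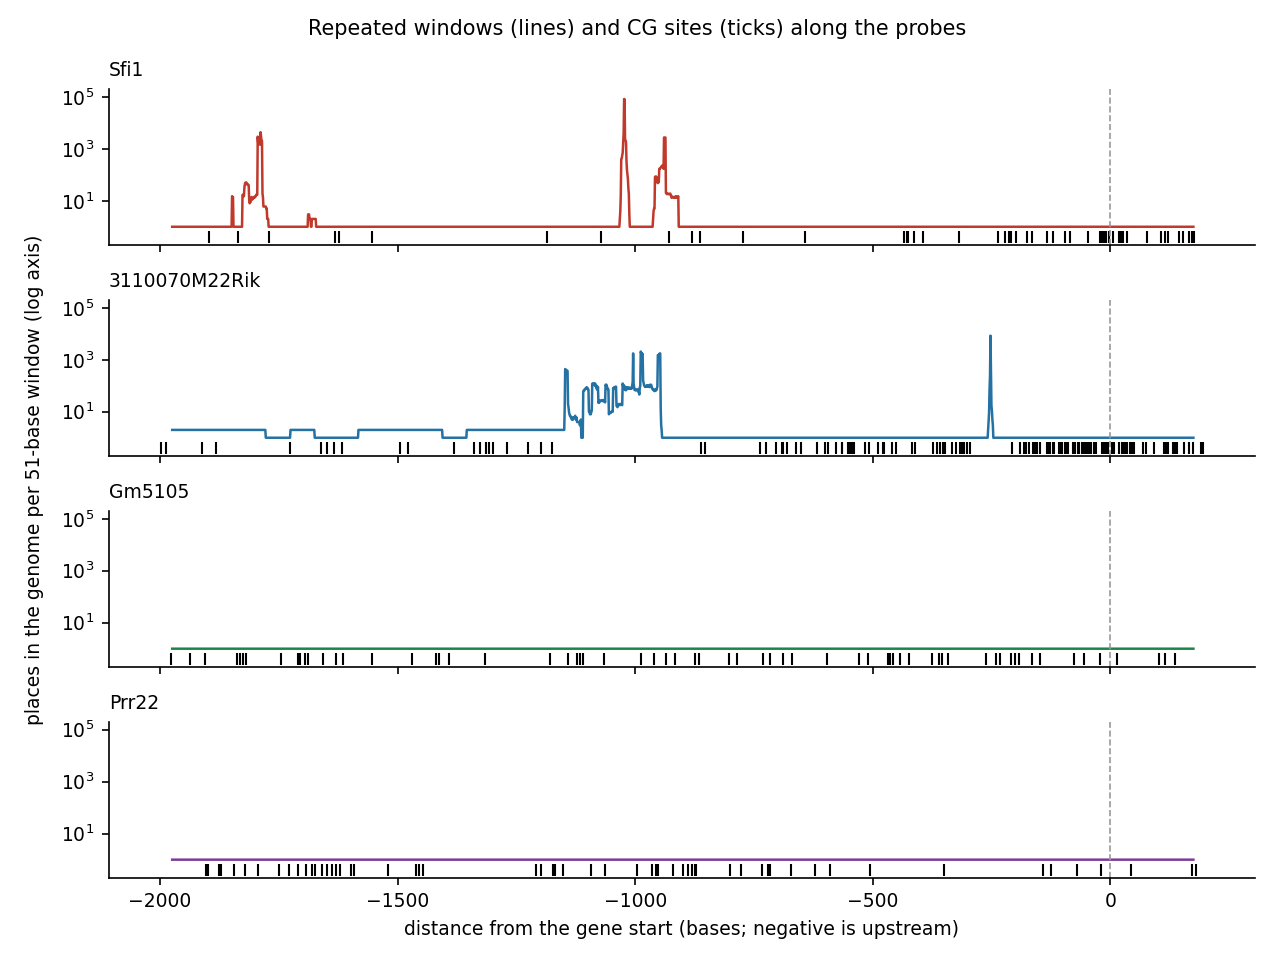
Number of places in the genome assembly of each 51-base window (lines, log axis, drawn at the window's middle) and CG sites (ticks) along the 4 probes, against the distance from the gene start in bases. Sfi1 has short repeated stretches upstream, 3110070M22Rik is in 2 or more places over most of its stretch beyond -920 bases, and every window of Gm5105 and Prr22 occurs once.

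The levels of other promoters with much repeated sequence are given for comparison. They held fewer CG sites, and pairs with several positions had been discarded, so their levels do not show what repeated sequence adds at the members. Of 746 promoters with 20 to 50% of sampled windows in more than one place, the median of the average level was 3.08 normalized reads and the highest, G530011O06Rik, had 41.875, with a median of 18 CG sites. Of 1724 promoters with 40 to 60% of bases masked, like Sfi1, the median was 4.15 and the highest, Tbc1d22bos, had 37.125, with a median of 30 CG sites. Of the 100 promoters with the highest level outside the members, 66 had Mir in their symbol. In these 100 the median masked share was 7.84%, and 27 had a sampled window found more than once, compared with 52.0% of all promoters. Masked shares of Sfi1, 3110070M22Rik and Prr22 were above this median, and that of Gm5105 was below it.

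Gm5105 and Prr22 both lie over exons of another gene. The whole Gm5105 probe, 2200 bases, lies in coding sequence of 1110002E22Rik on the opposite strand in the GENCODE annotation, which is so for 8 promoters, 0.0356% of all. The Prr22 probe overlaps exons of Dus3l, a gene for a tRNA-modifying enzyme, over 1547 bases (70.3%), 738 of them coding. Promoters with 20 to 50% of their bases in coding sequence of another gene had a median level of 12.5 normalized reads (584 promoters), compared with 4.42 for those without any (18782 promoters). The 65 promoters with over 50% had a median of 8.2. The number of CG sites moved with this class, with medians of 69.5, 41 and 84 in the same order, and its part in the difference was not tested. The 100 promoters with the highest level outside the members had a median of 21.0% of such coding sequence, where the median of all was 0. Of the promoters next in rank, Misp has 84.4% of its probe in exons of another gene and 23.5% in its coding sequence, and Snord37 has 31.3% in both. The Sfi1 probe overlaps 651 bases of Gm12735, an antisense transcript, and 104 bases of Sfi1 exon, and that of 3110070M22Rik 199 bases of its own exon and 151 of Tmem267, with no coding sequence of another gene in either. These exons are those of GENCODE alone, and with RefSeq added the untranslated exon bases numbered 448 in the Sfi1 probe and 817 in that of 3110070M22Rik. GC content was 45.9% for Sfi1, below the median of 48.0%, and 55.0, 56.4 and 58.1% for 3110070M22Rik, Gm5105 and Prr22.

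Variants between C57BL/6J and FVB/N in the promoter, from the authors' annotation, numbered 0 for Sfi1 and Prr22, 3 for 3110070M22Rik and 8 for Gm5105. The label of these counts gives 200 bases a minus sign and 2000 a plus sign, the reverse of the probe's range. Functional variants in the gene numbered 2 for Sfi1 and 3 for Gm5105, and 0 for the other members. Whether variants bear on the strain difference of 3110070M22Rik was not tested. In expression values that the authors added from testis cell populations of another study, whose scale is not stated, 3110070M22Rik had 3.76 in spermatogonia and 9.80 and 9.41 in spermatocytes and spermatids. Prr22 had 5.84, 9.03 and 11.6, the last above 98.2% of 17133 genes. Both were high in the later germ cells, whereas Sfi1 had 5.43, 6.50 and 6.26, near the medians of the genes, and Gm5105 had no value.

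The pattern over the 4 groups, log2 of the mean plus 1 less its own average, was compared among the 5379 promoters with an average of at least 10 normalized reads. The nearest to Sfi1 were Mir17, Mir7658 and Ascc1, at Euclidean distances of 1.48, 1.57 and 1.64 over the 4 group means. Nearest to 3110070M22Rik were Mir466d, Mir17 and Nat14 at 1.75, 1.75 and 1.81, and Mir466d had 66, 27, 198.8 and 41.1 normalized reads in controls and DEHP of C57BL/6J and then of FVB/N. No promoter was thus close to either. Gm5105 had near neighbours in Mir7023, Mir6999 and Prr22 at distances of at most 0.143, and Prr22 in Gm13826, Mir6999 and Sult2a4 at 0.0515, 0.0554 and 0.0879.

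Genes of the centriole, where the centrin partners of Sfi1 act, did not share its level. Of 30 listed genes 29 were found, and their averages lay between 0.825 and 12.925 normalized reads with a median of 2.9, against 4.65 for all promoters. The highest were Nek2, a centrosomal kinase, with 12.925, Nin, an anchor of microtubules, with 12.675, and Cep152, a scaffold of centriole duplication, with 10.725. The lowest were Cetn2 and Cetn1, both centrins, with 0.825 and 1.5, and Cenpj with 1.425. DEHP and control libraries lay apart for 0 of the 29 in either direction and either strain by the SD ranges, where 1.42% and 0.859% of all promoters lay apart with DEHP below and 0.249% and 0.774% with DEHP above in C57BL/6J and FVB/N. At such shares a list of 29 would hold few or none. Their median of 62 CG sites was above the 45 of all promoters. Their median log2 ratio of DEHP over control was 0.14 for C57BL/6J and 0.60 for FVB/N, compared with -0.10 and 0.35 for all.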

How the data were processed

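Sperm DNA of 20 males in 4 groups of 5 was captured with a methyl binding domain and sequenced as pairs. The authors aligned pairs onto mm10 with Bowtie 0.12.7, discarded those with several positions, non-concordant ones and those without CpG, counted those over each 2200-base promoter probe and used edgeR for normalization. Analysed here were the deposited signal values, means and SDs of normalized reads per group (1 decimal). Columns of the authors' comparisons hold fold changes, p-values and FDR and were not used. An expression score from another study was deposited by the authors for 17133 genes. Groups came from the labels. The depth of single libraries is unknown (the study's methods give an average per treatment, which differed, as did read length), and intervals and floors that need counts were not given. Nothing in the sources used here says how the SD was divided, and it was taken as the usual sample SD.

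Computed were log2 ratios of means with a pseudocount of 1, and whether groups lay apart, from the means plus and minus 1.79 SD widened by 0.05 for rounding. The SD of a log2 ratio was propagated from the authors' SDs. It was not divided by the root of the number of libraries, so it describes single libraries and not the error of a mean. Ranges that overlap do not show that libraries do. Exact windows and repeat-masked bases were counted in GRCm38.p6, exons were taken from GENCODE (untranslated exons left out of the printed sequences also from RefSeq), and copies were sought with blastn 2.17.0 (at least 75% identity, word 15, seeded outside masked bases, kept from 200 bases at 90%). The range rule and window counts were tested on simulated data. Python 3.11.15, numpy 2.4.6, pandas 2.3.3, numba 0.67.0 and matplotlib 3.10.9 were used.

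The members and gene lists were chosen with earlier results of these data known. Named beside the members were the 12 promoters with the highest level, up to 3 nearest and 3 highest promoters within 200 kb, the 3 nearest patterns, matched promoters of the highest level, and the 3 highest and 3 lowest of the centriole list. Other named promoters, such as those apart between strains or at the top of a repeat class, were chosen after their values were seen. The sequence of 1 stretch is not reported here.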

Additional observations from a re-analysis of the deposited data

How the results depend on the processing

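Direction of the fall under DEHP held for the 4 members in both strains with a pseudocount of 0.1 or 10 and after scaling to equal sums or equal medians. Equal medians gave log2 ratios in FVB/N of -4.48 for Sfi1, -4.42 for 3110070M22Rik, -2.41 for Gm5105 and -2.37 for Prr22. Equal sums made the falls in C57BL/6J smaller, as given above. Between strains in controls, equal sums and equal medians gave -0.13 and -0.18 for Sfi1, -0.28 and -0.34 for Gm5105 and -0.21 and -0.26 for Prr22, of opposite sign to the ratios as deposited, and -2.07 and -2.13 for 3110070M22Rik. The level of 3110070M22Rik over the median of its matched promoters, 6.19 on the log2 scale, became 5.78 among promoters with at least 1 normalized read and 6.66 with a pseudocount of 0.1. Promoters with DEHP below in C57BL/6J numbered 319 as deposited, 29 with equal sums and 169 with the SD taken as divided by the number of libraries, an alternative chosen after seeing the data, under which Gm5105 in C57BL/6J no longer lay apart. Those in FVB/N went from 193 to 739 with equal medians, and those with C57BL/6J controls below FVB/N controls from 6 to 25 and 29 with equal sums and equal medians. With a pseudocount of 0.1, promoters with a log2 ratio above 1 went from 1158 to 2591 in C57BL/6J and from 3258 to 5812 in FVB/N, and those below -1 in FVB/N from 604 to 1215. Windows of 36 and 100 bases gave 14.2% and 0.143% for Sfi1 and 42.9% and 22.4% for 3110070M22Rik. The other 82 values computed under alternatives stayed within 1 SD of single libraries, which is wider than the error of a mean, or within 1.5 times for a count. No paired analysis was possible because only group means and SDs were used, and for the same reason no replicate could be left out and no count test was run.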
